A study of Mus musculus with 3 samples.

Results

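Ccr7 and 9 companion genes, Fscn1, Ccl22, Il4i1, Itga4, Cacnb3, Samsn1, Mir155hg, Serpinb6b and Serpinb9, were followed in mouse epidermal Langerhans cells, the antigen-presenting cells of the epidermis. They are 10 of the 34289 listed features, matched by symbol, and all 10 were found. They were picked as a group that moves with Ccr7 in these same libraries, so their levels and their co-detection with Ccr7 are given as a description, without a test.

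The cells came from ear epidermis of male CD1 mice, an outbred stock with no genetic change named. The untreated mice had only the depilatory cream Nair, the croton oil mice the irritant croton oil, given in olive oil and acetone, and the microneedle mice punches with a microneedle array. Treated ears were taken 48 hours after the initial treatment. All cells passed through trypsin, mechanical dissociation, magnetic removal of dead cells and magnetic enrichment of Langerhans cells before 3' droplet sequencing. There was 1 library per group and the number of mice behind each is not given, so no difference below has a replicate check. Intervals are 95% exact Poisson (levels) or Clopper-Pearson (shares) intervals and cover counting error within a library only.

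CCR7 is the chemokine receptor that guides activated dendritic cells towards CCL19 and CCL21 in lymphatic vessels and lymph nodes. When Langerhans cells leave the epidermis they lose adhesion to keratinocytes, rebuild their actin skeleton and shift from antigen uptake to presentation. Fascin, the actin-bundling protein encoded by Fscn1, is a classical marker of mature dendritic cells.

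Langerhans cells were taken as cells with at least 2% of their unique molecular identifiers (UMIs, each 1 captured RNA molecule) in Cd74, H2-Aa, H2-Ab1 and H2-Eb1, the MHC class II genes, and at least 2 UMIs of Epcam, an adhesion molecule of these cells. This class II gate held 8651 of 9054 retained untreated cells, 5922 of 7626 croton oil cells and 5295 of 6479 microneedle cells. Median depth was 11527, 12576.5 and 17342 UMIs per cell in that order. Cells with 3 or more Ccr7 UMIs numbered 16 in the untreated, 762 in the croton oil and 170 in the microneedle library, and 9, 123 and 19 of them passed the gate. Of the croton oil cells that did not, 386 failed only the class II condition, 98 only the Epcam condition and 155 both. The microneedle counts were 107, 4 and 40, and the untreated counts were 0, 6 and 1. Over all 16, 762 and 170 cells with 3 or more Ccr7 UMIs the median class II share was 3.45%, 0.512% and 0.135% of UMIs. A gate without the class II condition was added after the data had been seen. This Epcam gate asks for at least 2 Epcam UMIs and fewer than 3 detected markers of keratinocytes, T cells, neutrophils, monocytes or macrophages, mast cells or melanocytes, and held 8177, 5849 and 5115 cells. Levels, calls and co-detection are given for both gates.

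The Langerhans cell label was set beside 8 markers, of which Epcam is fixed by the gate itself. In the Epcam gate, cells without a Ccr7 UMI held all 8, and Cd207, which encodes the defining protein langerin, was detected in 97.0%, 75.3% and 94.9% of them in the untreated, croton oil and microneedle libraries. Among cells with 3 or more Ccr7 UMIs the Cd207 share was 88.9%, 54.4% and 56.7%, and that of Csf1r, the receptor for a growth factor of these cells, was 55.6%, 50.1% and 60%. Csf1r was detected in 91.2%, 99.0% and 99.2% of cells with 0 Ccr7 UMIs. Mfge8 was detected in 100%, 83.7% and 78.3% of cells with 3 or more Ccr7 UMIs, and in 91.6%, 98.4% and 98.8% of those with 0. Conventional dendritic cells were represented by a list of 7 genes, which did not move together. Flt3 was at 471 against 38.3 CPM (UMIs of the gene per 1000000 UMIs) after croton oil and 547 against 34.7 after microneedles. Zbtb46 was at 226 against 54.8 CPM and at 255 against 36.6 CPM. Mgl2 was at 244 against 346 CPM and at 10.2 against 15.5 CPM, and Cd209a at 0.278 against 2.88 CPM and at 0 against 4.07 CPM. Irf4 was at 88.9 against 122 CPM and at 129 against 114 CPM. Clec9a and Xcr1 were at 0 to 0.463 CPM in the cells with high Ccr7 of all 3 libraries. Whether every cell with high Ccr7 in the Epcam gate is a Langerhans cell was not tested.

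Apart from the neighbours Serpinb6b and Serpinb9, the genes are not close to each other in the genome (GRCm39): Ccr7 on chr11:99035022-99045911, Fscn1 on chr5:142946098-142958953, Ccl22 on chr8:95471226-95478327, Itga4 on chr2:79085660-79163467, Cacnb3 on chr15:98528721-98542417 and Samsn1 on chr16:75655681-75819169. Some sequences help to place the members. Mir155hg is the host transcript of miR-155, a microRNA with many roles in immune cells, and lies on chr16:84500055-84512133 (GRCm39, plus strand). The mature forms are shown because the 3' assay counts only the host transcript and gives no value for them. They are from RefSeq, GRCm38.p6, chromosome 16, plus strand, with the seed (bases 2 to 8) in capitals.
mmu-miR-155-5p: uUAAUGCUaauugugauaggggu
mmu-miR-155-3p: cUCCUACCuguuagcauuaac

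Fscn1 is shown with its promoter because it was the companion most confined to Ccr7-positive cells in the treated libraries, by share of its UMIs. The bases before its first annotated exon lie on chr5:142945860-142946097 (GRCm39, plus strand; RefSeq window, placed by exact match). Capitals mark TGACGTCA, the palindromic cAMP response element.
Fscn1: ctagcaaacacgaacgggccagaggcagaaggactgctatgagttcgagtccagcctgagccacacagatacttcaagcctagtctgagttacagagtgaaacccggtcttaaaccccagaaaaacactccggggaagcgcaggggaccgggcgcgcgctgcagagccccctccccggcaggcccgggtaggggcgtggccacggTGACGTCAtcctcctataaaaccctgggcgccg

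Serpinb9 is shown because it was the member with the highest share of Ccr7-negative treated cells. The piece lies on chr13:33188468-33188497 (GRCm39, plus strand) and holds the only match among the members to a pattern bound by interferon regulatory factors (GAAA, any 2 bases, GAAA), on the minus strand. Capitals mark the match as read on the plus strand.
Serpinb9: ctcctgctacTTTCACTTTCtctaaggacc

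These motifs were searched on both strands of the 250 bases before each RefSeq start, in 10 windows of 9 members. The RefSeq starts do not always match the GRCm39 annotation: all 250 bases of the Il4i1 window and of 1 Cacnb3 window lie in annotated exons, as do 192 of the Serpinb9 window. The Serpinb9 match itself lies inside the annotated gene, after its start at 33187233. TGACGTCA occurred in 1 member window and in 1.55% of 32851 windows of all genes. The interferon regulatory factor pattern occurred in 1 member window and in 2.98% of all windows. The NF-kB consensus occurred in 0 member windows and in 3.90% of all. A match is a description of the letters, not a site of binding.

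Levels were first compared between libraries over all cells of a gate. A gene was compared when it reached 20 CPM in either library, and called at a 2-fold difference on the scale log2((CPM + 5)/(CPM + 5)), which understates the change of low genes. In the class II gate, 4 of the 10 members were at least 2-fold higher after croton oil than in the untreated library (Ccr7, Il4i1, Serpinb6b and Serpinb9). The other 6 were not called: 4 of them (Fscn1, Itga4, Cacnb3 and Mir155hg) never reached 20 CPM. Of all 6837 features compared, 5.50% were at least 2-fold higher. After microneedles 1 member, Serpinb9, was called higher and 8 members stayed under 20 CPM, with 3.88% of 6703 features higher. In croton oil against microneedle 3 members were called higher (Ccr7, Il4i1 and Samsn1), with 1.63% of 6633 features higher. Since the members were chosen on these libraries, nothing is read from these counts. Both treated libraries are set against the same untreated library, so the comparisons are not independent.

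**Figure D1:**
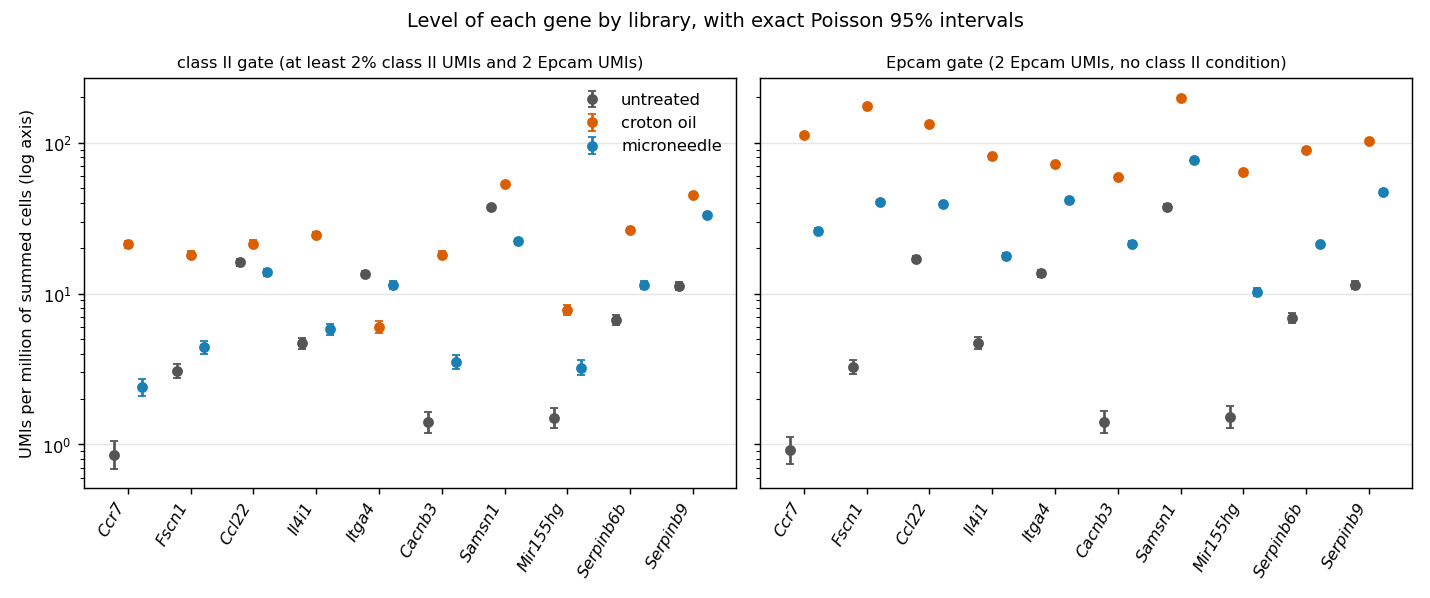
Level of each gene in CPM (log axis) over all cells of the class II gate (left) and the Epcam gate (right), as points per library with exact Poisson 95% intervals. In the Epcam gate the croton oil point is the highest for all 10 genes; in the class II gate Itga4 is lowest in croton oil.

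The Epcam gate drops the class II condition and adds the filter on markers of other cells. There all 10 members were at least 2-fold higher after croton oil, where 5.99% of 6859 features were higher. After microneedles 7 members were higher (Ccr7, Fscn1, Ccl22, Itga4, Cacnb3, Serpinb6b and Serpinb9), where 4.02% of 6712 features were. In croton oil against microneedle 9 were higher, all but Itga4, where 1.92% of 6652 features were. Adding the marker filter alone to the class II gate gave 4, 1 and 3 members in the same order, the same genes as without it, where 5.48%, 3.81% and 1.51% of features were higher. When at least 1 Cd207 UMI was required in the Epcam gate, 10 members were higher after croton oil, where 5.93% of features were, and 2 (Fscn1 and Serpinb9) after microneedles, where 3.93% were.

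The receptor Ccr7 itself was near the floor in untreated skin. Over the class II gate it had 0.854 CPM (0.688 to 1.05) in the untreated, 21.2 CPM (20.2 to 22.2) in the croton oil and 2.40 CPM (2.10 to 2.73) in the microneedle library. The Epcam gate gave 0.918, 113 and 26.1 CPM. The order was croton oil, microneedle, untreated in both gates, and no 2 intervals met. After thinning each cell to 3000 UMIs, which leaves out 32 to 109 shallower cells per library and gate, 0.0936%, 2.28% and 0.458% of cells in the class II gate held a Ccr7 UMI. The Epcam gate gave 0.0992%, 7.93% and 2.26%. Unthinned, 0.22%, 4.80% and 1.28% of cells in the class II gate were positive. In keratinocyte-like cells, which should lack the receptor, a UMI at that depth was found in 0 of 58 (untreated), 0.971% (0.025 to 5.29) of 103 (croton oil) and 0 of 36 (microneedle). The upper Clopper-Pearson bounds for the zeros are 6.16% and 9.74%. Median depth of the keratinocyte-like cells was 9100, 32459 and 11573 UMIs. T cell-like croton oil cells, a type that can itself use the receptor, held a Ccr7 UMI in 5.93% (2.42 to 11.8) of 118. T cell markers summed to 3.98, 69.2 and 11.7 CPM over the class II gate, in the same order as Ccr7. With cells of 3 or more markers of another class left out, the Ccr7 shares were 0.0995%, 2.34% and 0.429%, and in the Epcam gate, where these cells are left out too, T cell markers summed to 2.96, 2.33 and 2.49 CPM.

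Fscn1 followed the same order. Its class II gate levels were 3.07 CPM (2.75 to 3.42), 18.1 CPM (17.2 to 19.1) and 4.41 CPM (4.0 to 4.85) in the untreated, croton oil and microneedle libraries. Its Epcam gate levels were 3.25, 174 and 40.4 CPM. Croton oil keratinocyte-like cells also held it, at 61.8 CPM and in 8.74% (4.1 to 15.9) of cells at 3000 UMIs, against 1.77 CPM in untreated ones. Its share in Ccr7-negative Langerhans cells, given further on, lies below that value.

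Itga4, the integrin alpha chain that pairs with beta 1 or beta 7 for adhesion to VCAM1 and fibronectin, went the other way in the class II gate. It had 13.5 CPM (12.8 to 14.2), 6.0 CPM (5.48 to 6.56) and 11.4 CPM (10.8 to 12.1). Levels in the Epcam gate were 13.6, 72.6 and 41.6 CPM, so that the direction of the croton oil difference depends on the gate. Among cells with 0 Ccr7 UMIs of the class II gate it was at 12.5, 1.23 and 8.78 CPM, lowest in croton oil. Itga4 UMIs were found in 9.66%, 1.17% and 6.35% of those cells unthinned. Among Ccr7-positive cells it was at 331, 89.1 and 179 CPM. The Epcam gate values of Ccr7-positive cells were 602 CPM after croton oil and 998 CPM after microneedles. Croton oil was thus below microneedle in Ccr7-positive and in Ccr7-negative cells, although its level over all cells of the Epcam gate was higher.

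Ccl22, a chemokine that attracts CCR4-bearing T cells, was carried by few cells. Its class II gate level was 16.1 CPM (15.3 to 16.8), 21.5 CPM (20.5 to 22.5) and 13.9 CPM (13.1 to 14.6), while 0.444%, 2.63% and 1.32% of cells were positive at 3000 UMIs. In the untreated library 1 cell held a large part of these UMIs: without it the level was 9.39 CPM. In untreated Ccr7-negative cells the level was 9.75 CPM with that library's top cell and 3.05 CPM without it, against 6.02 after croton oil and 4.73 after microneedles. The direction of the Ccr7-negative Ccl22 differences therefore rests on 1 cell. Over the Epcam gate Ccl22 was at 16.9, 133 and 39.2 CPM.

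Il4i1, a secreted enzyme that oxidizes amino acids and dampens T cells, had 4.69 CPM (4.29 to 5.11), 24.6 CPM (23.5 to 25.7) and 5.79 CPM (5.32 to 6.29) in the class II gate. Its Epcam gate levels were 4.68, 81.8 and 17.7 CPM. The gene (chr7:44465354-44490233, GRCm39) overlaps Nup62 on the same strand, so some UMIs could belong to either. Cacnb3, a cytoplasmic beta subunit of voltage-gated calcium channels, had 1.41 CPM (1.20 to 1.65), 18.1 CPM (17.2 to 19.0) and 3.53 CPM (3.16 to 3.92). Its Epcam gate levels were 1.41, 59.5 and 21.3 CPM. Both genes were highest in croton oil, with no overlap between intervals.

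Samsn1, an adaptor protein of blood cells that restrains B cell signalling, was the member found in most untreated cells (22.4% unthinned in the class II gate). It had 37.3 CPM (36.2 to 38.5), 53.3 CPM (51.8 to 54.9) and 22.2 CPM (21.2 to 23.1), so the microneedle library was the lowest there. Over the Epcam gate it had 37.7, 197 and 77.0 CPM, and the microneedle library was above the untreated one. Neutrophil-like cells held Samsn1 in 89.9% of 109 croton oil and 95.1% of 264 microneedle cells at 3000 UMIs, and the untreated library had 0 such cells. The neutrophil markers summed to 165, 78.6 and 117 CPM over the class II gate, while cells with 3 or more of them made up 0.324%, 2.36% and 3.93%. Their part in Samsn1 was not tested.

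Mir155hg had 1.5 CPM (1.28 to 1.75), 7.76 CPM (7.16 to 8.39) and 3.23 CPM (2.88 to 3.61) in the class II gate. The Epcam gate gave 1.53, 64.0 and 10.3 CPM. It shares its strand with Gm60965, another annotated transcript of the locus, so UMIs in the shared part cannot be told apart.

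Serpinb6b and Serpinb9 are intracellular protease inhibitors, and Serpinb9 is known for blocking granzyme B. They lie next to each other on chromosome 13 (chr13:33073279-33163050 and chr13:33187233-33201940, GRCm39), with 24182 bases and 0 protein-coding genes between them. Serpinb6b had 6.65 CPM (6.17 to 7.16), 26.2 CPM (25.1 to 27.4) and 11.4 CPM (10.8 to 12.1) in the class II gate. Serpinb9 had 11.2 CPM (10.6 to 11.9), 45.1 CPM (43.7 to 46.6) and 33.1 CPM (32.0 to 34.3). Over the Epcam gate Serpinb6b was at 6.86, 89.9 and 21.2 CPM, and Serpinb9 at 11.4, 103 and 47.2 CPM. Both belong to a family of similar genes in which reads may be split, so their separate values are uncertain to that extent.

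The next question was which genes were higher in treated skin also in cells with 0 Ccr7 UMIs. Such a cell may still have held Ccr7 RNA that was not captured. Over cells with 0 Ccr7 UMIs in the class II gate, Serpinb6b and Serpinb9 were at least 2-fold higher after croton oil, where 5.44% of 6833 features were higher. After microneedles Serpinb9 was, where 3.85% of 6701 features were. The Epcam gate called the same genes, against 5.48% of all features for croton oil, 3.79% for microneedle and 1.44% for croton oil against microneedle, the last with 0 members. Serpinb9 had 10.8 CPM (10.2 to 11.4), 36.7 CPM (35.3 to 38.0) and 31.5 CPM (30.4 to 32.7) in Ccr7-negative cells of the class II gate, a log2 difference of 1.40 for croton oil and 1.21 for microneedle. Serpinb6b had 6.21 CPM (5.74 to 6.70), 20.1 CPM (19.1 to 21.1) and 10.5 CPM (9.88 to 11.2), with log2 differences of 1.16 and 0.47. Both serpins were thus above the untreated level in both treated libraries, beyond counting error, and the microneedle difference of Serpinb6b stayed under 2-fold. Serpinb6b only just reached the 20 CPM needed to be compared.

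Of the other 7 companions only Samsn1 reached 20 CPM in Ccr7-negative cells. Cacnb3 had 0.568, 7.73 and 1.37 CPM, a log2 difference of 1.19 for croton oil, against 8.87, 9.13 and 6.85 CPM in keratinocyte-like cells. Il4i1 had 2.69, 8.45 and 3.17 CPM, and Mir155hg 1.02, 5.39 and 1.86 CPM. Mir155hg was at 0, 9.60 and 0 CPM in keratinocyte-like cells. Fscn1 had 0.651, 2.00 and 0.915 CPM. Cacnb3 and Mir155hg were thus 13.6 and 5.27 times their untreated CPM in croton oil at low levels. Samsn1 had 34.5, 23.8 and 18.4 CPM, lower in both treated libraries. Croton oil and microneedle Ccr7-negative cells differed by at least 2-fold in 0 of the 3 members that could be compared, where 1.46% of 6630 features were higher in croton oil.

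**Figure D2:**
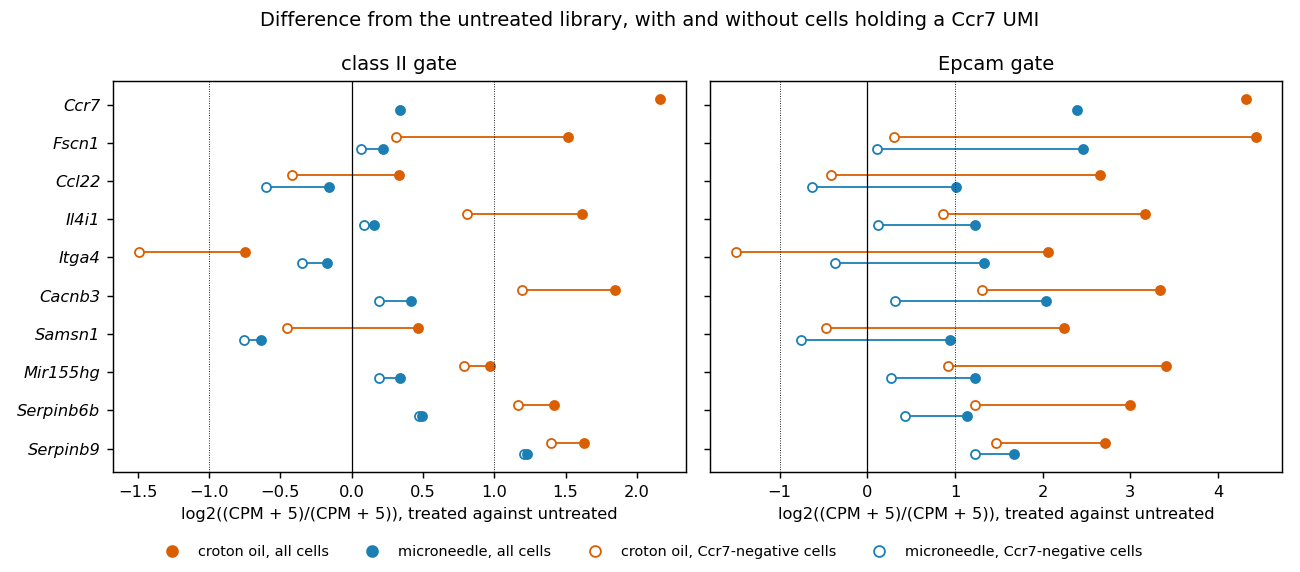
Difference from the untreated library as log2((CPM + 5)/(CPM + 5)), class II gate left and Epcam gate right, over all cells (filled) and over cells with 0 Ccr7 UMIs (open), croton oil in orange and microneedle in blue, with dotted lines at 2-fold. Open points of Serpinb9 lie past 2-fold for both treatments, and that of Itga4 for croton oil lies at -1.49 in the class II gate. Those of Fscn1 lie near 0 on this scale, which understates the change of low genes.

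The shares of cells gave the same picture for the serpins. At 3000 UMIs Serpinb9 was found in 2.56% (2.24 to 2.92), 7.97% (7.29 to 8.70) and 6.79% (6.12 to 7.51) of Ccr7-negative cells in the class II gate. Serpinb6b was found in 1.73% (1.47 to 2.03), 4.57% (4.04 to 5.14) and 2.59% (2.18 to 3.06). Keratinocyte-like cells held Serpinb9 in 0%, 2.91% (0.60 to 8.28) and 0%, and at 0.887, 8.20 and 0 CPM. They held Serpinb6b in 0%, 1.94% (0.24 to 6.84) and 0%. The croton oil shares of Ccr7-negative Langerhans cells lie within these wide intervals for both serpins, so a difference in share between the cell types was not detectable there. By level, Serpinb9 was at 36.7 CPM in these Langerhans cells and at 8.20 CPM (5.71 to 11.4) in croton oil keratinocyte-like cells. Serpinb6b was at 20.1 and 8.43 CPM (5.90 to 11.7), so both serpins lay above the keratinocyte-like interval by level. T cell-like cells, which use Serpinb9 themselves, held it in 29.7% and Serpinb6b in 27.1% of 118 croton oil cells. The 8 T cell markers summed to 3.97, 58.3 and 10.5 CPM in the Ccr7-negative cells of the class II gate, where 1 untreated, 64 croton oil and 10 microneedle cells held 3 or more of them. With cells holding 3 or more markers of another class left out of that gate, Serpinb9 was found in 2.60%, 8.13% and 6.80% of Ccr7-negative cells and Serpinb6b in 1.79%, 4.55% and 2.59%. Serpinb9 was then at 10.9, 36.7 and 32.1 CPM and Serpinb6b at 6.39, 19.3 and 10.2 CPM, so that Serpinb6b fell just under the 20 CPM needed to be compared. In croton oil, Ccr7-negative shares of Fscn1 (0.712%), Ccl22 (1.60%), Itga4 (0.486%) and Mir155hg (1.22%) were at or below those of keratinocyte-like cells (8.74%, 1.94%, 1.94% and 1.94%) at the same depth. The Fscn1 share was lower than in keratinocyte-like cells beyond counting error, with intervals of 0.51 to 0.97 and 4.1 to 15.9. For the other 3 the keratinocyte-like intervals are wide (0.24 to 6.84), so neither expression nor a difference between the cell types is read from them. Shares of Il4i1 (2.50% against 0.971%), Cacnb3 (2.28% against 1.94%) and Samsn1 (6.03% against 3.88%) were above the keratinocyte-like ones, within their intervals (0.025 to 5.29, 0.24 to 6.84 and 1.07 to 9.65).

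Co-detection with Ccr7 was then described within each library. Cells with at least 1 Ccr7 UMI numbered 19, 284 and 68 in the class II gate and 19, 613 and 167 in the Epcam gate. All 9 companions were at least 2-fold higher in Ccr7-positive than in Ccr7-negative cells, in both treated libraries and both gates. In the class II gate 2.89% of 6542 features were higher in croton oil and 2.84% of 6796 in microneedle, and in the Epcam gate 7.61% and 8.10% were. The log2 difference in the Epcam gate ran from 3.72 for Serpinb9 to 7.71 for Fscn1 in croton oil, and from 3.69 to 7.60 for the same genes in microneedle. The class II gate values ran from 2.25 (Serpinb9) to 5.44 (Fscn1) in croton oil and from 1.95 (Serpinb9) to 5.95 (Ccl22) in microneedle. Median depth was 14441.5 UMIs in positive and 12524 in negative croton oil cells of the class II gate, and 20438 and 17312 in microneedle. The Epcam gate medians were 14443 and 12334 in croton oil, and 17075 and 17140.5 in microneedle, where positive cells were not deeper. The part of depth in these differences was not tested. T cell markers moved with the split in the class II gate: they summed to 258 CPM in positive and 58.3 CPM in negative croton oil cells, and to 89.5 and 10.5 CPM in microneedle. Cells with 3 or more of these markers made up 4.23% and 1.14% in croton oil and 4.41% and 0.191% in microneedle. With the marker filter added to that gate all 9 companions were again higher in both treated libraries, where 3.10% and 2.71% of features were. The T cell sums in the Epcam gate were 2.04 against 2.37 CPM and 2.95 against 2.48 CPM. Splitting cells by Ccr7 shares with the companions the cells that chose them, so this too is a description.

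At 3000 UMIs per cell, Fscn1 was found in 76.8% (72.7 to 80.6) of 461 Ccr7-positive and 1.03% of 5356 Ccr7-negative croton oil cells of the Epcam gate. In microneedle the shares were 76.3% (67.4 to 83.8) of 114 and 0.506% of 4941. Samsn1 was found in 89.8% and 86.0% of positive cells, the highest of the companions in each library. Mir155hg was the lowest, with 47.3% (42.7 to 52.0) in croton oil and 24.6% (17.0 to 33.5) in microneedle, intervals that do not meet. Itga4 was found in 58.8% (54.1 to 63.3) and 71.9% (62.7 to 79.9), and Cacnb3 in 68.1% (63.6 to 72.3) and 78.9% (70.3 to 86.0). Serpinb6b was found in 67.7% (63.2 to 71.9) and 55.3% (45.7 to 64.6). The class II gate gave lower shares, over 134 croton oil and 24 microneedle cells. Fscn1 was found in 41.0% (32.6 to 49.9) and 16.7% (4.74 to 37.4) of them, and Samsn1 in 66.4% (57.8 to 74.3) and 29.2% (12.6 to 51.1). Cacnb3, at 33.3% (15.6 to 55.3), was the highest there in microneedle, and Mir155hg was again the lowest, with 11.9% and 4.17%. In the Epcam gate the intervals of Ccl22, Il4i1, Fscn1, Samsn1, Serpinb9, Cacnb3, Itga4 and Serpinb6b touched or overlapped between the treated libraries.

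**Figure D3:**
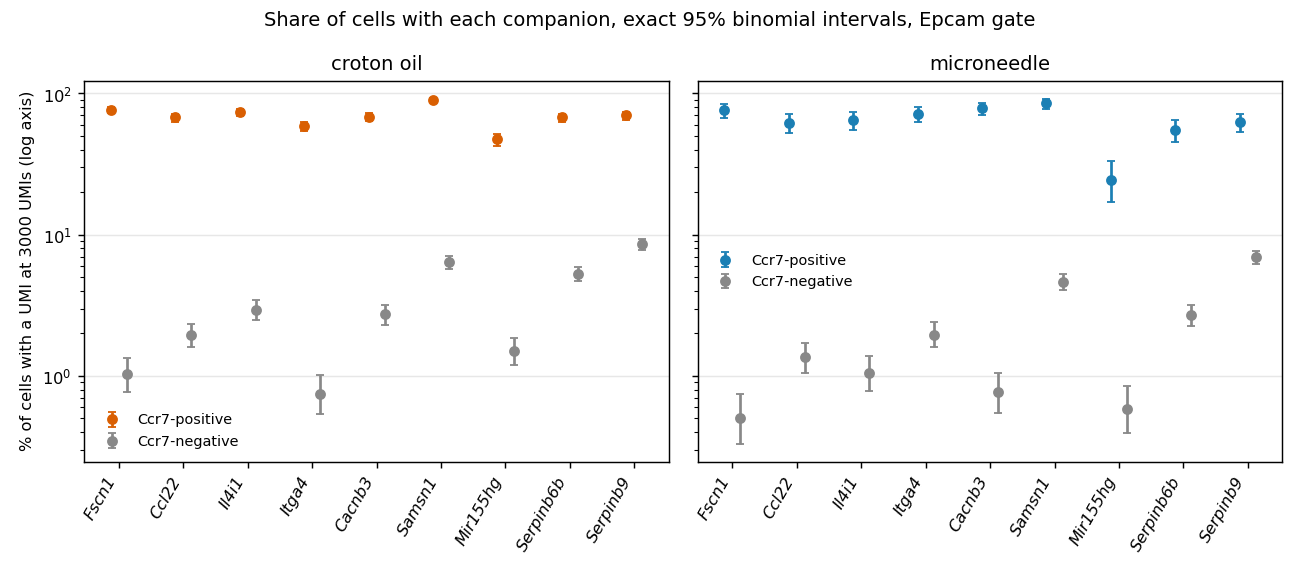
Share of cells with a UMI of each companion at 3000 UMIs (log axis) among Ccr7-positive (coloured) and Ccr7-negative (grey) cells of the Epcam gate, with exact 95% intervals. Croton oil and microneedle are drawn, the untreated library is not. Positive cells lie between 24.6% and 89.8% and negative cells between 0.506% and 8.57%.

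Counted the other way, Ccr7-positive cells held 99.0% of all Fscn1 UMIs of the croton oil Epcam gate, with 11.9% of all UMIs of the gate. They held 98.5% of Itga4, 95.8% of Ccl22, 91.3% of Mir155hg, 90.7% of Il4i1, 89.4% of Samsn1 and 87.3% of Cacnb3. The serpins were the least concentrated, with 78.8% of Serpinb6b and 66.5% of Serpinb9. In microneedle, where these cells made up 3.33% of all UMIs, the shares ran from 97.3% for Fscn1 and 91.5% for Cacnb3 to 53.0% for Serpinb6b and 33.8% for Serpinb9. The class II gate, whose Ccr7-positive cells held 5.42% of all UMIs in croton oil and 1.55% in microneedle, gave lower shares. There they were 89.6% for Fscn1, 80.5% for Itga4, 34.2% for Mir155hg, 27.4% for Serpinb6b and 23.2% for Serpinb9 in croton oil. In microneedle they ran from 79.6% for Fscn1 to 6.34% for Serpinb9. In the 19 untreated Ccr7-positive cells of the Epcam gate, with 0.320% of all UMIs, they were 80.1% for Fscn1, 64.5% for Cacnb3, 7.78% for Itga4 and 4.47% for Serpinb9. Most Fscn1 UMIs thus lay in Ccr7-positive cells in all 3 libraries, while most UMIs of Itga4 and the serpins in untreated skin lay in other cells. Counted by cells, the untreated library differed from the treated ones in the Epcam gate only. There 10 of its 68 cells with an Fscn1 UMI held Ccr7 (14.7%), and 58 did not. After croton oil 78.0% of 542 such cells held Ccr7, and after microneedles 62.9% of 167.

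The companions were also found together in the same cells. In the Epcam gate at 3000 UMIs, Ccr7-positive cells held a median of 5.5, 7 and 6.5 of the 9 companions in the untreated (8 cells), croton oil (461 cells) and microneedle (114 cells) libraries. Ccr7-negative cells held a median of 0 in each. At least 5 companions were found in 75%, 77.4% and 78.1% of positive cells, against 0.0496%, 0.523% and 0.324% of negative ones. In the class II gate the untreated median was 5.5 over the same 8 cells, while the treated positive cells held fewer, with medians of 3 (134 croton oil cells) and 1 (24 microneedle cells). None of the 9 was found in 12.7% of croton oil and 41.7% of microneedle Ccr7-positive cells there.

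**Figure D4:**
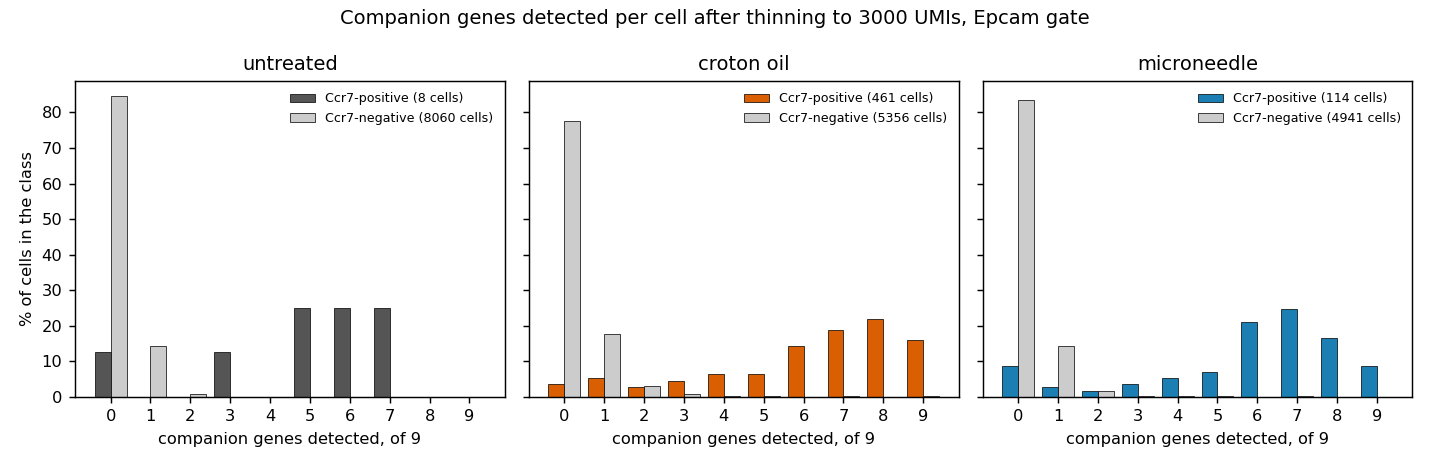
Distribution of the number of companion genes detected per cell after thinning to 3000 UMIs, Epcam gate, as the percentage of Ccr7-positive (coloured) and Ccr7-negative (light grey) cells of each library. Positive cells peak at 6 to 8 companions in the treated libraries, and most negative cells have 0; the untreated panel rests on 8 positive cells.

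In croton oil the levels of Fscn1 and Serpinb9 went up with the number of Ccr7 UMIs. In croton oil cells of the Epcam gate Fscn1 was at 1.95 CPM with 0 Ccr7 UMIs, 106 CPM with 1 (125 cells), 293 CPM with 2 (27 cells), 849 CPM with 3 to 9 (122 cells) and 2129 CPM with 10 or more (339 cells). Serpinb9 went through 39.0, 90.2, 394, 398 and 794 CPM over the same classes. In microneedle cells with 1 Ccr7 UMI (43 cells) Fscn1 was at 5.97 CPM, above the 1.12 CPM of cells with 0. Serpinb9 was at 29.8 CPM, close to the 32.3 CPM of cells with 0. With 3 to 9 UMIs (30 cells) Fscn1 and Serpinb9 were at 758 and 382 CPM. A lone Ccr7 UMI thus went with less Fscn1 in microneedle than in croton oil. Over the class II gate Fscn1 went through 2.00, 41.2, 45.7, 394 and 820 CPM in croton oil (5638, 139, 22, 61 and 62 cells), and Serpinb9 through 36.7, 67.1, 189, 194 and 444 CPM. In microneedle cells of that gate with 1 Ccr7 UMI (45 cells) Fscn1 was at 5.37 and Serpinb9 at 60.2 CPM, against 0.915 and 31.5 CPM with 0.

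In the treated libraries of the Epcam gate the class II share ran opposite to Ccr7. In the untreated library it was 4.88% of UMIs in the 19 Ccr7-positive cells, 3.45% in the 9 with 3 or more Ccr7 UMIs and 4.57% in Ccr7-negative cells. Median class II share in the Epcam gate was 5.08% of UMIs in croton oil cells with 0 Ccr7 UMIs, 4.44% with 1, 1.74% with 3 to 9 and 0.209% with 10 or more. In microneedle it was 4.62%, 4.12%, 0.160% and 0.0952%. Within the class II gate, which starts at 2%, the croton oil medians were 5.11% with 0 Ccr7 UMIs, 4.49% with 1, 4.79% with 3 to 9 and 4.17% with 10 or more. Of the cells with under 2% class II, 0 of 33 untreated, 363 of 527 croton oil (68.9%) and 108 of 167 microneedle cells (64.7%) held a Ccr7 UMI. Below 0.5% class II the croton oil share was 94.4% of 306 cells and the microneedle share 86.4% of 110 cells, and the untreated library had 0 cells.

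**Figure D5:**
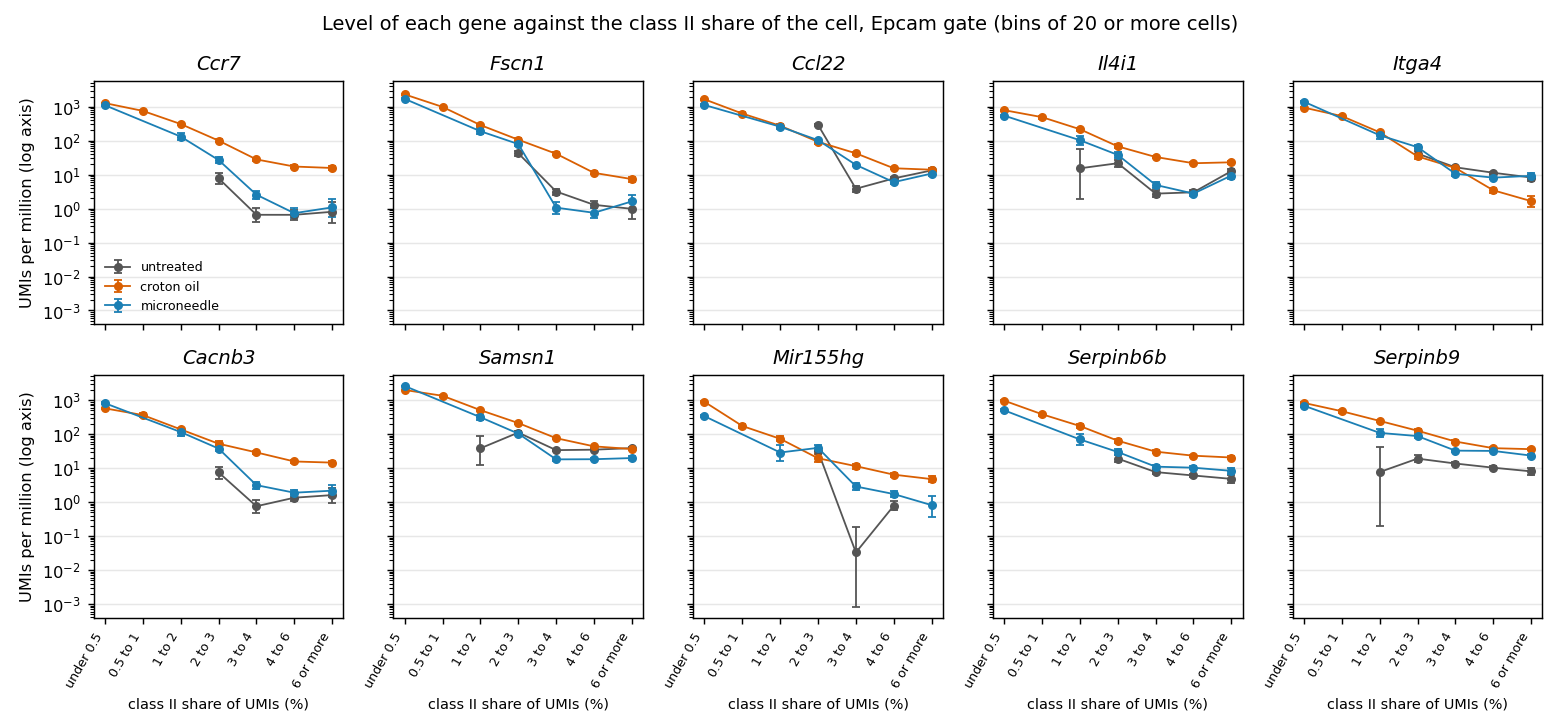
Level of each gene in CPM (log axis) against the class II share of the cell in the Epcam gate, by library, in bins of at least 20 cells, with exact Poisson intervals; bins with 0 UMIs have no point. All 10 genes are highest in the lowest class II bin of each treated library.

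Ccr7 in croton oil went from 1277 CPM below 0.5% class II to 754, 310, 100, 28.1, 17.3 and 15.7 CPM in the bins 0.5 to 1, 1 to 2, 2 to 3, 3 to 4, 4 to 6 and 6% or more. In microneedle it was at 1104 CPM in the lowest bin and at 132, 27.0, 2.57, 0.732 and 1.09 CPM from 1 to 2% on; the bin 0.5 to 1% held 16 cells. Serpinb9 ran from 834 to 36.2 CPM after croton oil and from 690 to 23.4 after microneedles. In the untreated library Ccr7 was at 7.81 CPM at 2 to 3% class II, carried by 3 of 250 cells, and at 0.655 CPM at 4 to 6%. The 32 untreated cells at 1 to 2% had 0 Ccr7 UMIs, so the level did not go on up there. Above 3% class II the untreated members had no common direction. Il4i1 was at 2.76 CPM at 3 to 4% and 12.7 CPM at 6% or more, while Itga4 was at 16.5 and 8.23 CPM. In microneedle Il4i1 was at 4.98 and 9.41 CPM in these 2 bins. Over all bins in croton oil, Itga4 had the largest ratio, with 943 CPM in the lowest and 1.66 CPM in the highest, while Fscn1 had the largest difference in CPM (2306 and 7.39).

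In croton oil the class II threshold cut through this gradient. Just inside the class II limit, at 2 to 2.5%, Ccr7 was at 84.0 CPM in 106 croton oil cells, and just outside, at 1.5 to 2%, at 246 CPM in 104 cells. The other 9 members were also higher outside than inside in croton oil. In microneedle the values were 37.0 CPM in 46 cells and 45.1 CPM in 40 cells, of which 4.35% and 2.50% held a Ccr7 UMI, and the members had no common order. Ccl22 was at 126 CPM inside and 35.3 outside, and Serpinb9 at 99.4 and 26.8, while Fscn1 was at 31.2 inside and 73.1 outside. In the untreated library Ccr7 was at 2.97 CPM in 70 cells just inside, and 0 UMIs were found in 62 cells just outside. Just inside the Epcam limit, at 2 UMIs, croton oil Ccr7 was at 189 CPM in 212 cells, and with 1 Epcam UMI at 352 CPM in 184 cells. In the untreated library those cells had a median of 2814 and 1636.5 UMIs, and Ccr7 at 155 CPM in 59 and 498 CPM in 50 cells. These levels rest on few cells, since 3.39% and 8% of them held a Ccr7 UMI.

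Removal of high-scoring cells as possible doublets also met Ccr7-positive cells more often. It took 104 of 388 Ccr7-positive croton oil cells of the class II gate (26.8%) against 7.58% of all gated cells. In microneedle it took 18 of 86 (20.9%) against 6.13%, and in the untreated library 0 of 19. With these cells kept, 7 members were called higher in croton oil than in untreated cells of the class II gate, in place of 4 (Fscn1, Ccl22 and Cacnb3 were added), where 5.66% of all features were higher. Whether the removed cells were doublets was not tested.

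The genes most like Ccr7 among other features were ranked by the log2 ratio of Ccr7-positive over Ccr7-negative croton oil cells, among features with at least 50 CPM in the positive cells. In the class II gate the 10 leading non-members of 3475 features were 5430437J10Rik, Chst11, Fxyd2, Rftn1, Fabp5, Traf1, Ccl17, Lima1, Bcl2a1a and Tspan33. The highest, 5430437J10Rik, had a log2 ratio of 3.6 in croton oil and 0.70 in microneedle, and Ccl17, the chemokine gene most related to Ccl22, had 2.70 and 4.26. Fabp5, a fatty acid carrier, was at 1006 against 109 CPM after croton oil and 309 against 13.4 after microneedles. Over the Epcam gate the 4 leading of 3344 features were Itgb8, Mylk, Stxbp6 and Fabp5, with log2 ratios of 5.29, 5.23, 5.10 and 4.99. Itgb8, an integrin beta chain that activates TGF-beta, was at 221 against 0.767 CPM after croton oil and 139 against 0.328 after microneedles.

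Related genes were taken from 7 lists. Of 27 maturation and migration genes, 13 could be compared between croton oil and untreated cells of the class II gate: 4 were at least 2-fold higher and 3 lower, with a median log2 difference of -0.32, against -0.03 for all features, of which 5.50% were higher and 5.53% lower. Over the Epcam gate 16 could be compared, 7 were higher and 3 lower, and the median was 0.85 against -0.03 (5.99% of features higher, 5.99% lower). The medians of the gates are over different genes, so nothing is read from their signs. Cd274, Socs2 and Stat4 were the genes added in the Epcam gate, at 39.0, 32.6 and 20.8 CPM after croton oil against 3.20, 1.79 and 5.65 CPM untreated. They passed the 20 CPM filter only through croton oil, where they were high. In the class II gate the largest differences were those of Zmynd15 (7.83 CPM untreated, 202 CPM croton oil, 45.4 CPM microneedle), the costimulator Cd80 (54.2, 285 and 266 CPM), the signalling adaptor Traf1 (5.34, 44.7 and 23.1 CPM) and the cytokine Il15 (61.8, 13 and 41.7 CPM). Il15 was the only lower one of these 4. Between Ccr7-positive and Ccr7-negative croton oil cells 16 genes of the list could be compared, 9 were higher and 0 lower, and the median was 1.12 against -0.06 for all features (2.89% higher, 0.948% lower). The same contrast in the Epcam gate gave 15 higher and 0 lower of 22, with a median of 2.67 against -0.13 (7.61% higher, 8.73% lower).

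Of 17 chemokine receptors and ligands, 7 could be compared in croton oil against untreated cells of the class II gate, and 5 were higher and 0 lower, with a median of 2.18, where 5.50% of features were higher and 5.53% lower. The Epcam gate gave 6 higher and 0 lower of 8, with Cxcr4 added, where 5.99% and 5.99% were. The leading ones were Ccr1, a receptor for inflammatory chemokines (5.40, 77.7 and 16.3 CPM, libraries in the order above), Ccl3 (0.445, 30.5 and 4.67 CPM), the neutrophil attractant Cxcl2 (238, 1228 and 639 CPM) and Ccl4 (4.08, 36.2 and 5.80 CPM). Between Ccr7-positive and Ccr7-negative croton oil cells of the class II gate 8 genes of the list were compared, with 2 higher (Cxcr4 and Ccl17) and 1 lower (Ccl4), where 2.89% and 0.948% of features were. The log2 difference of Ccl4 was -1.53 and that of Ccr1, within 2-fold, -0.85. Of 10 compared in the Epcam gate 4 were higher and 2 lower, where 7.61% and 8.73% of features were.

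In the same comparison 13 of 14 adhesion genes were compared, with 0 higher and 1 lower (5.50% and 5.53% of features), the integrin chain Itga6 (45.2, 13.4 and 37.0 CPM). E-cadherin (Cdh1), which ties Langerhans cells to keratinocytes, was in the Epcam gate 2.30 log2 units lower in Ccr7-positive than in Ccr7-negative croton oil cells (53.6 and 284 CPM). In that contrast 1 of 12 adhesion genes compared, Icam1, was higher and 5 were lower, where 7.61% and 8.73% of features were. The class II gate gave 1 higher and 1 lower of 12, where 2.89% and 0.948% were. Of 17 actin genes 16 were compared, with 5 higher and 0 lower (5.50% and 5.53% of features): Cotl1 (26.2, 103 and 44.4 CPM), Actb, Pfn1 and Cfl1 led. The Epcam gate gave 8 higher and 0 lower of 16, where 5.99% and 5.99% of features were. Over Ccr7-negative cells alone the actin list also had 5 higher of 16, where 5.44% of features were, with a median of 0.67 against -0.03 for all features.

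Of 15 NF-kB pathway genes, 1 (Traf1) was higher and 2 (Tnip1 and Birc3) were lower in croton oil, in both gates, where 5.50% of features were higher and 5.53% lower in the class II gate and 5.99% and 5.99% in the Epcam gate. Of 10 calcium channel subunits 4 were compared, of which Cacna1a, a pore-forming chain, was higher (6.99, 55.6 and 17.5 CPM) and Cacna1e was lower (1058, 322 and 605 CPM). Over the Epcam gate 5 were compared, with Cacnb4 also higher and Cacna1d also lower. The shares of all features are those given for the NF-kB genes. Of 12 further clade B serpins only Serpinb6a could be compared, and it was at 74.5, 130 and 96.4 CPM, within 2-fold. After microneedles the same lists gave 3 higher and 1 lower of 13 maturation genes, 1 and 1 of 4 chemokine genes and 1 and 0 of 16 actin genes, where 3.88% of all features were higher and 1.76% lower. Between Ccr7-positive and Ccr7-negative croton oil cells of the Epcam gate, 5 of the 15 NF-kB genes were higher and 0 lower (7.61% and 8.73% of features). The class II gate gave 1 and 0 (2.89% and 0.948%). In microneedle 6 were higher in the Epcam gate and 1 in the class II gate, where 8.10% and 2.84% of features were.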

How the data were processed

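The authors deposited gene by cell matrices of UMI counts, made with Cell Ranger 8.0 on GRCm39 per the submitters' processing notes (8.0.0 per the file headers), with 9876, 8241 and 6945 barcodes in the untreated, croton oil and microneedle libraries. Cells with at least 500 genes and at most 10% mitochondrial UMIs were kept (9827, 8158 and 6855, with 127628049, 119196577 and 117098564 UMIs). The libraries shared 13 to 32 barcodes per pair. Scrublet in scanpy 1.11.5 called 1, 0 and 0 doublets by itself, under 0.5% of cells, so its calls were not used. Instead the highest scores were removed at 0.8% of cells per 1000 cells (773, 532 and 376 cells). Counts were summed per library and compared as CPM with a pseudocount of 5, a minimum of 20 CPM and a 2-fold limit; this comparison was tested on simulated data. With 1 library per group there is no test. Cells were thinned to 3000 UMIs for shares. TMM factors came from edgeR 4.0.16, with Python 3.11.15, numpy 2.4.6 and scipy 1.17.1.

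The members and gene lists were chosen with earlier results of these data known. From each list the 4 genes with the largest croton oil difference are named, and for likeness to Ccr7 the 10 leading non-members, of which some are given with values. The Epcam gate, the limit of 3 Ccr7 UMIs, the dendritic cell list left out of the marker filter, the Cd207 condition and the marker filter added to the class II gate were chosen after seeing the data. Genes named outside these rules (Cdh1, Icam1, Cd274, Socs2, Stat4, Cxcr4, Cacnb4, Cacna1d and the Langerhans and dendritic cell markers) were chosen after their values were seen.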

Additional observations from a re-analysis of the deposited data

How the results depend on the processing

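No paired analysis was possible because each group has 1 library, and for the same reason no library could be left out. The class II gate called 4 members higher in croton oil than untreated, 1 in microneedle than untreated and 3 in croton oil than microneedle; over Ccr7-negative cells the counts were 2 and 1. With cells of high doublet score kept, the croton oil counts against untreated and microneedle were 7 and 6, and 3.22% of croton oil cells held Ccr7 at 3000 UMIs in place of 2.28%. Without the Epcam condition the count against microneedle was 6 and the share 3.79%. Leaving out gated cells with 2 or more markers of any other class kept 1358 of 5922 croton oil cells, with counts of 1 and 0, 1 over Ccr7-negative cells (Serpinb9) and a share of 1.35%. Not counting the dendritic cell list in that filter gave 7, 5 and 1. A 50 CPM minimum, which few members reach, gave 0, 0 and 1, and 0 and 0 over Ccr7-negative cells; no minimum gave 5 for croton oil against microneedle. The Epcam gate gave 10, 7 and 9, with shares of 7.93% and 2.26% after croton oil and microneedles, and with a Cd207 UMI required 10, 2 and 8, with 5.94% and 1.43%. Unthinned shares were 0.22%, 4.80% and 1.28%; at 6000 UMIs they were 0.194% untreated and 3.41% in croton oil. The count of 9 companions higher in Ccr7-positive cells was within 1.5 times of 9 under every alternative run. The share of all features higher in that contrast ran from 2.46% to 7.61% in croton oil and from 2.54% to 8.10% in microneedle. With no minimum it was 0.805% and 0.863%. The marker filter of the Epcam gate added to the class II gate, an alternative chosen after seeing the data, gave 4, 1 and 3, and 1 and 1 over Ccr7-negative cells, where Serpinb6b fell under 20 CPM. The share of all features called higher ran from 5.48% to 6.99% for croton oil against untreated, from 3.61% to 4.68% for microneedle against untreated and from 1.23% to 2.02% for croton oil against microneedle under these alternatives, except with no minimum, where it was 1.41%, 0.965% and 0.443% of 34289 features. Over Ccr7-negative cells it ran from 5.41% to 7.24% and from 3.6% to 4.66%, and was 1.41% and 0.954% with no minimum. Of 844 member differences under alternatives 364 moved and 0 reversed as calls.

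TMM scaling moved the median of all features from -0.03 to 0.08 for croton oil against untreated and from -0.06 to 0.07 for croton oil against microneedle. It took the higher share of called features from 49.9% to 62.7% in the first, from 50.3% to 64.4% over Ccr7-negative cells, and from 61.0% to 74.6% in croton oil against microneedle.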
